A study of Homo sapiens with 6 samples.

Results

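Receptor tyrosine kinases are cell surface proteins that bind a growth factor, a membrane-bound ephrin or collagen outside the cell and carry a tyrosine kinase domain inside it. Ligand binding brings receptors together, their tails are phosphorylated on tyrosine, and adaptor proteins dock there and pass the signal to the RAS-MAPK and PI3K-AKT pathways. In pancreatic cancer EGFR, MET, IGF1R and AXL are the best known members, while PP2A, a serine/threonine phosphatase, acts on kinases further down these pathways.

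The genes described here are 53 receptor tyrosine kinases and receptor-like pseudokinases of the same family, chosen by symbol from the 42540 rows of a gene count table, with the row of the highest total taken where a symbol stood on several rows. Sequencing covered RNA of MiaPaCa2-CasRx cells, a human pancreatic ductal adenocarcinoma (PDAC) line that carries CasRx, a Cas13d enzyme that cuts RNA at sites set by a guide RNA. The 3 control libraries came from these cells without a guide (genotype WT), and the 3 knockdown libraries from the same cells with a lentiviral guide against PPP2R1A, the scaffold subunit of PP2A (genotype KD). CasRx was therefore present in both groups, whereas the guide, the viral transduction and the puromycin selection are described for the knockdown cells only, so that their effects cannot be told apart. The guide-bearing cells were 1 selected population, and the study calls its replicates, made over 3 weeks, independent without saying whether they were separate cell populations. The study names the last sampling as that of higher passage. Control and knockdown libraries of the same number also share a tag in their library names, whose meaning the labels do not give. Libraries of the same number may therefore share a week of culture, and week and replicate cannot be told apart. The p-values therefore cover the spread between single libraries only.

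The libraries held 28474154 to 45006732 counts, of which the 53 genes took 0.173% to 0.191%. PPP2R1A mRNA stood at 590 to 647 TMM-normalized CPM (counts scaled to library size, as plotted throughout) in the 3 controls, at 143 and 142 CPM in knockdown 1 and 2 and at 544 CPM in the library labelled knockdown 3. The target was thus not clearly reduced in that library, which the study also left out for its weaker knockdown, and the first comparison uses knockdown 1 and 2 against control 1 and 2. Control 3 also stood apart, with 12.4% of 15596 genes at least 2-fold away from the mean of control 1 and 2, against 3.86% for the library labelled knockdown 3. Defining epithelial markers were sparse for a pancreatic carcinoma line: CDH1 had at most 6 counts and EPCAM at most 1, while the keratins KRT8 and KRT18 were abundant and were higher in knockdown 1 and 2. The summed CPM of the 6 epithelial markers was 1385 to 4054 in the controls, 8068 to 9281 in knockdown 1 and 2 and 1367 in the library labelled knockdown 3, while KRT19 fell in knockdown 1 and 2. Of 4 mesenchymal markers VIM, ZEB1 and FN1 did not pass the test and CDH2 was at 0, with a summed CPM of 7396 to 10655 in the controls and 3773 to 4785 in knockdown 1 and 2. Fibroblast, blood and melanocyte markers summed to at most 1.93, 1.09 and 0.938 CPM in any library. Of 3 neural markers SNAP25 rose and the other 2 did not pass the test. The summed CPM of the neural markers was 1.48 to 1.62 in control 1 and 2 and 3.39 to 4.51 in knockdown 1 and 2. It was highest in control 3, at 6.53, and 1.24 in the library labelled knockdown 3. Whether these shifts bear on the receptors was not tested.

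Of the 53 receptors, 12 had no count in any library. These were ERBB4, KIT, FLT3, KDR, INSRR, NTRK2, NTRK3, MUSK, EPHA5, TEK, TIE1 and ROS1, and 0 counts allowed a level of up to 0.0638 to 0.108 CPM, by 3 counts per library. A further 10 had counts in at least 1 library but did not pass edgeR's filter on low counts, namely MST1R, PDGFRA, PDGFRB, CSF1R, FLT4, EPHA3, EPHA6, EPHA7, ALK and LTK. The receptors of PDGF, CSF1, SCF and FLT3 ligand, the neurotrophin receptors and the TIE receptors thus gave no testable gene. The other 31 receptors were tested.

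**Figure D1:**
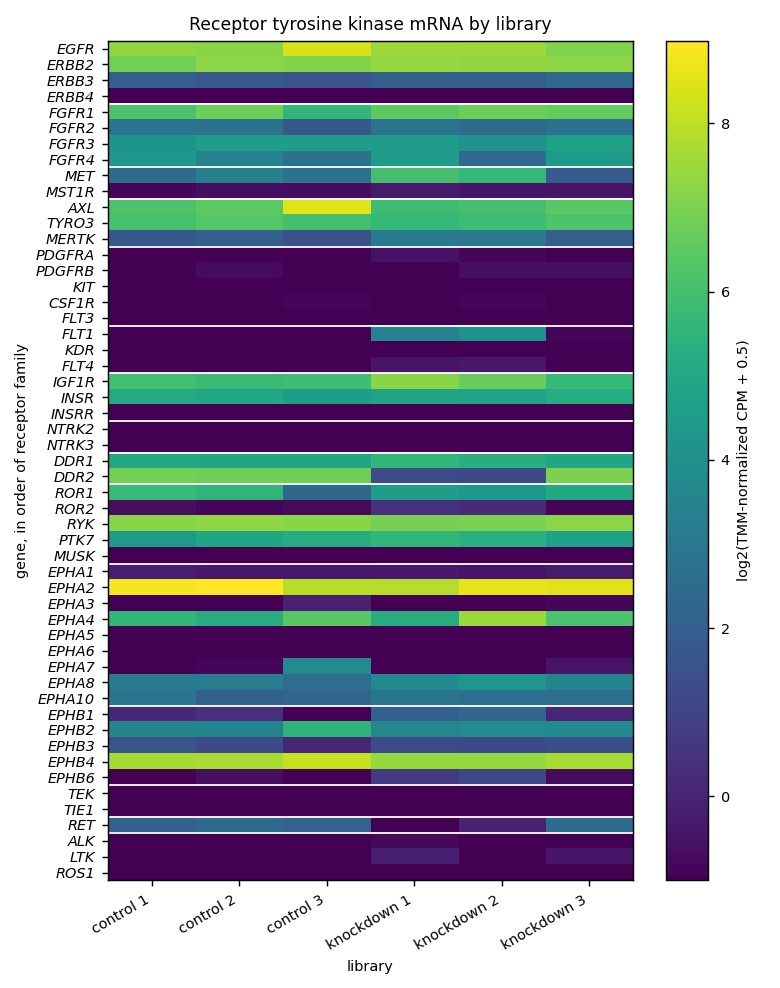
mRNA of the 53 receptors (rows, in order of receptor family, with white lines between families) in the 6 libraries (columns), coloured by log2(TMM-normalized CPM + 0.5). MET and FLT1 are bright in knockdown 1 and 2, DDR2 is dark in these libraries alone, and AXL and EPHA7 are bright in control 3.

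In knockdown 1 and 2, 5 receptors rose (MET, MERTK, FLT1, ROR2 and EPHB1) and 2 fell (DDR2 and ROR1), at an adjusted p under 0.05 from edgeR's quasi-likelihood test. These 7 are 22.6% of the 31 tested receptors, beside 13.6% of all 15596 genes tested (7.15% higher and 6.41% lower). The median log2 fold change was 0.18 over the receptors and 0.01 over all genes. In knockdown 1 and 2, 14 receptors lay above and 9 below both control libraries without overlap, 74.2% of those tested, beside 62.8% of all genes (32.8% above and 30% below). In bulk RNA, fewer cells that express a gene and less RNA per cell cannot be told apart. With control 3 added to the controls edgeR called 4 receptors higher (MET, FLT1, ROR2 and IGF1R) and 1 lower (DDR2), beside 2.28% and 2.14% of all genes, so that MERTK, EPHB1 and ROR1 were lost and IGF1R entered. Relative to the 100 nearest genes on the chromosome it called 5 higher (MET, FLT1, DDR1, ROR2 and EPHB1) and 1 lower (DDR2), beside 5.48% and 3.09%. In edgeR each of the 7 calls was lost when any 1 of the 4 libraries was left out, and no gene at all was called then. These fits leave a single library in a group, and all 7 kept their direction. With a replicate block the 7 were lost as well (edgeR adjusted p = 0.0630 to 0.0872), as was every call among all 15596 genes. All 7 kept an unadjusted p under 0.05 with the block in edgeR. With the block in DESeq2 6 did, and ROR2 had an unadjusted DESeq2 p of 0.0647. DESeq2 called 9 receptors higher and 3 lower, among them all 7, beside 9.99% and 8.74% of all genes, and with the block 5 higher and 3 lower, beside 13.1%, without MERTK and ROR2.

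**Figure D2:**
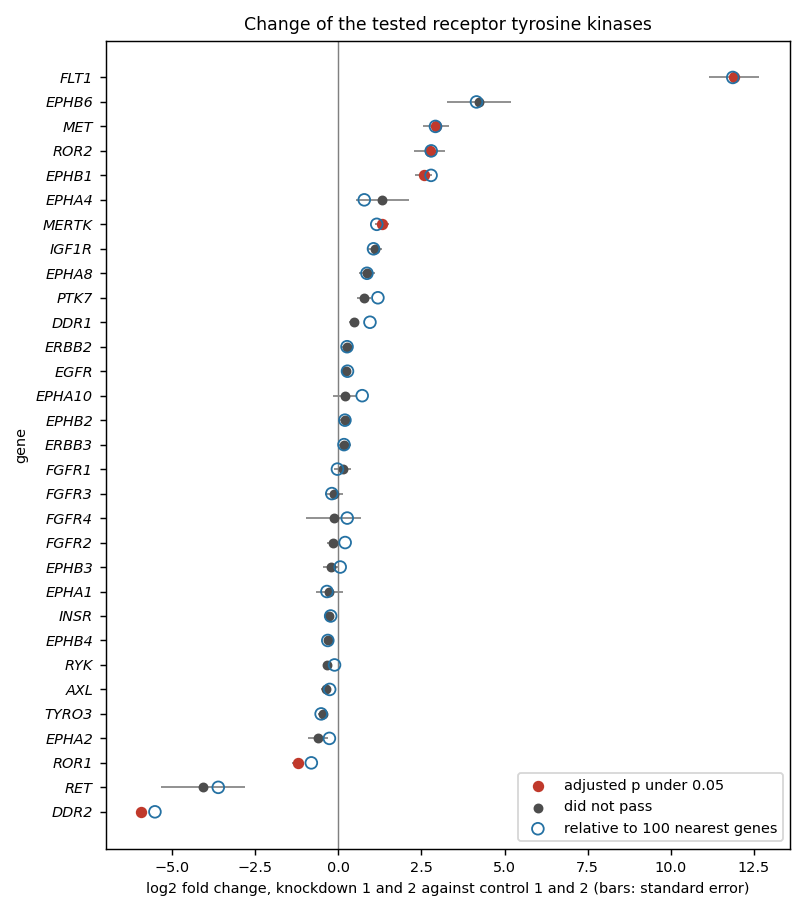
Log2 fold change of the 31 tested receptors in knockdown 1 and 2 against control 1 and 2 (horizontal axis, with standard errors), red where the adjusted p was under 0.05 and grey where not. Open circles give the change relative to the 100 nearest genes on the chromosome; the position of FLT1, at 0 in both controls, depends on the prior count.

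MET, the receptor of hepatocyte growth factor, stood at 5.27, 9.61 and 6.09 CPM in control 1, 2 and 3, and at 65.7 and 49.1 CPM in knockdown 1 and 2. The library labelled knockdown 3 had 3.21 CPM, below each control. MET was therefore high in the 2 libraries with little PPP2R1A mRNA and low in the other 4, without overlap. Its mean rose from 7.44 ± 3.07 (SD, n = 2) to 57.4 ± 11.7 CPM (SD, n = 2), a fitted 7.67-fold (log2 fold change 2.94 ± 0.385 SE, edgeR adjusted p = 0.0293). Here and further on, folds are those of the edgeR fit. MET lies on chromosome 7, and the median change of its 100 nearest genes was 0.02 on the log2 scale. HGF, the ligand of MET, had no count in any library. MST1R, the other member of the MET family, had at most 12 counts.

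FLT1, a receptor of VEGFA and PGF also known as VEGFR1, had no count in any control, 373 and 804 counts in knockdown 1 and 2, and 2 counts in the library labelled knockdown 3. This made FLT1 at least 265-fold higher in knockdown 1 and 2, by a floor of 3 counts over the control group (edgeR adjusted p = 0.0217). KDR, the main signalling receptor of VEGFA, was at 0 throughout, and FLT4, the receptor of VEGFC, reached 13 counts. Among 5 endothelial markers, CDH5 and VWF rose beside FLT1, CLDN5 did not pass the test, and PECAM1 and ERG were at 0. The summed CPM of these markers was 0.156 to 3.45 in the controls, 38.1 to 60.8 in knockdown 1 and 2 and 3.94 in the library labelled knockdown 3. Their part in the result was not tested.

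MERTK, a receptor for the bridging proteins GAS6 and PROS1 of the TAM family, was at 2.85, 3.46 and 2.25 CPM in the controls and at 8.41, 7.26 and 3.61 CPM in knockdown 1 and 2 and the library labelled knockdown 3. Every knockdown library thus lay above every control, although only narrowly in the last. The log2 fold change in knockdown 1 and 2 was 1.31 ± 0.216 (SE, edgeR adjusted p = 0.0397), and relative to its 100 nearest genes it was 1.16 (adjusted p = 0.0579). With control 3 added it was 1.45 (adjusted p = 0.0570). The other TAM receptors gave no call. TYRO3 was at 66.6 and 80.3 CPM in control 1 and 2 and at 49.9 and 58.0 CPM in knockdown 1 and 2 (log2 fold change -0.45, adjusted p = 0.133), and the log2 fold change of AXL was -0.37 (adjusted p = 0.170).

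EPHB1, a receptor of B-type ephrins, had 0.598 and 0.756 CPM in control 1 and 2, no count in control 3, 3.75 and 4.38 CPM in knockdown 1 and 2 and 0.562 CPM in the library labelled knockdown 3. It was 5.96-fold higher in knockdown 1 and 2 (log2 fold change 2.57 ± 0.258 SE, edgeR adjusted p = 0.0213). With control 3 added the call was lost (adjusted p = 0.201). Its row shares a locus name with CEP63, so reads of both genes may be mixed there. ROR2, a receptor of WNT5A, rose from 0.106 ± 0.0485 to 0.744 ± 0.119 CPM (SD, n = 2 each, edgeR adjusted p = 0.0411), on 4 and 2 counts in control 1 and 2 against 30 and 31 in knockdown 1 and 2. WNT5A itself had at most 12 counts.

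DDR2, a receptor that fibrillar collagen activates, showed the larger of the 2 falls. Its level was 119, 109.9 and 111 CPM in the controls, 2.01 and 1.79 CPM in knockdown 1 and 2 and 130.5 CPM in the library labelled knockdown 3. The 4 libraries with a high PPP2R1A level held DDR2 in a narrow range, and the other 2 nearly lacked it. In the fit it was 60.5-fold lower (log2 fold change -5.92 ± 0.141 SE, edgeR adjusted p = 0.00758), and relative to its 100 nearest genes, whose median was -0.41, it was -5.51 (adjusted p = 0.00812). DDR1, the other collagen receptor, is known from epithelial cells and was at 30.7, 29.8 and 29.1 CPM in the controls and at 46.4, 37.5 and 28.7 CPM in the knockdown libraries. DDR1 gave a log2 fold change of 0.47 and did not pass the test (adjusted p = 0.133), whereas relative to its 100 nearest genes on chromosome 6, whose median was -0.49, its change was 0.95 (adjusted p = 0.0470).

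ROR1, a pseudokinase receptor of WNT5A, fell from 52.4 and 45.5 CPM in control 1 and 2 to 22.8 and 19.3 CPM in knockdown 1 and 2. Control 3 had 4.47 CPM, the lowest of all libraries, and the library labelled knockdown 3 had 33.2 CPM. The spread within the controls was thus wider than the difference called, and the call rests on control 1 and 2. The log2 fold change was -1.22 ± 0.154 (SE, edgeR adjusted p = 0.0276), with control 3 added it was -0.70 (adjusted p = 0.725), and relative to the 100 nearest genes it was -0.81 (adjusted p = 0.0587).

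**Figure D3:**
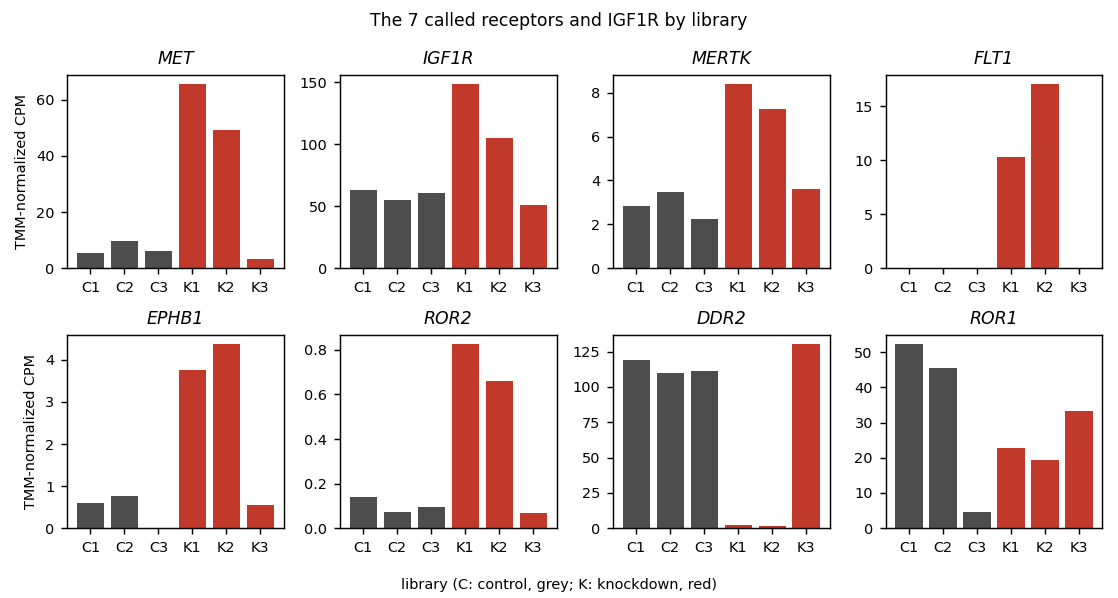
TMM-normalized CPM (vertical axis, starting at 0) of the 7 called receptors and IGF1R in each library, 1 bar per library, with controls in grey and knockdown libraries in red. MET reaches 65.7 and 49.1 CPM and DDR2 drops to 2.01 and 1.79 CPM in knockdown 1 and 2, while the library labelled knockdown 3 resembles the controls.

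To show the sequence context of 3 called receptors with large changes and of ROR1, the 250 bases before an annotated start were taken from RefSeq (build GRCh38.p14) on the strand of the gene, for MET at chr7:116671946-116672195, FLT1 at chr13:28495129-28495378 on the minus strand, DDR2 at chr1:162630613-162630862 and ROR1 at chr1:63773767-63774016. Capitals mark GC boxes (GGGCGG, or CCGCCC on the other strand) and TATA boxes (TATAAA, or TTTATA on the other strand), and no capitals overlap. DDR2 has 3 annotated starts, of which the first is shown.
MET: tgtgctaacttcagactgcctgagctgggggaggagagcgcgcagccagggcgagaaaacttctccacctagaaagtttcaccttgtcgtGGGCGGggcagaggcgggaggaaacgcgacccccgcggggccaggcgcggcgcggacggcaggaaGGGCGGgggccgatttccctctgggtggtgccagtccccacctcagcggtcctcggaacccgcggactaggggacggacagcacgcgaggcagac
FLT1: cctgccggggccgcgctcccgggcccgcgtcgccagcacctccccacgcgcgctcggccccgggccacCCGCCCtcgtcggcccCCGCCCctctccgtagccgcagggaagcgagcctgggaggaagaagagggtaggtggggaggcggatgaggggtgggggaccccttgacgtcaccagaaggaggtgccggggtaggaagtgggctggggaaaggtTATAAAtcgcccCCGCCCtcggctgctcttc
DDR2: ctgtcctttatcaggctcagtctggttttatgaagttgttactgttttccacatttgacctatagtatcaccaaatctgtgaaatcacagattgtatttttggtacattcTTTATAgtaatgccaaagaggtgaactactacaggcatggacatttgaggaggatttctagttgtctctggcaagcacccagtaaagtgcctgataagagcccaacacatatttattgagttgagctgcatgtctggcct
ROR1: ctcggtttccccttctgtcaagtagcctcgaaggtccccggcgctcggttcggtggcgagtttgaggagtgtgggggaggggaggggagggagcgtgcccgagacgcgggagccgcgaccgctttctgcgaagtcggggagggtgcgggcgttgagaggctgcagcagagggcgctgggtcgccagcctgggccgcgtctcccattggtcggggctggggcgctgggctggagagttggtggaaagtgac

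The windows of MET, FLT1 and ROR1 were rich in G and C (68.4%, 73.2% and 69.2%) and held 24, 25 and 24 CpG dinucleotides, whereas the window of DDR2 had 40.0% G and C and no CpG. Over the 80 windows of the 48 receptors with a window the medians were 64.8% and 15 CpG, beside 58.0% and 11 over all 35116 windows. MET had 2 GC boxes and FLT1 had 3, a motif in 42.6% of all windows of this length. A TATA box stood close to the start of FLT1 and, on the other strand, farther upstream of DDR2, and 10.7% of all windows hold one. The AP-1 motif TGANTCA (6.57% of all windows) and the E-box CAGGTG (17.5%) matched in none of these 4 windows on either strand. A match is only a match of letters.

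Of the 24 tested receptors that gave no call, IGF1R, the receptor of insulin-like growth factors, lay nearest to the threshold. It had 62.8, 54.7 and 60.9 CPM in the controls, 149 and 105 CPM in knockdown 1 and 2 and 51.1 CPM in the library labelled knockdown 3. Both knockdown libraries with little PPP2R1A stood above all others. The log2 fold change was 1.10 ± 0.216 (SE, edgeR adjusted p = 0.0519) and 1.09 with control 3 added (adjusted p = 0.0490). INSR, the insulin receptor, was at 35.0, 30.7 and 23.7 CPM in the controls and at 28.2, 26.4 and 35.8 CPM in the knockdown libraries, so that the groups overlapped (log2 fold change in knockdown 1 and 2 of -0.27, adjusted p = 0.253).

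EPHB6, an ephrin receptor without kinase activity, was counted 0, 4 and 0 times in the controls, 40 and 81 times in knockdown 1 and 2 and 5 in the library labelled knockdown 3 (edgeR adjusted p = 0.0673). PTK7, a pseudokinase of WNT signalling, had 21.5 and 29.1 CPM in control 1 and 2 and 46.5 and 39.8 CPM in knockdown 1 and 2 (log2 fold change 0.76, adjusted p = 0.0946). EPHA8 was at 7.98 and 8.86 CPM against 12.8 and 18.0 CPM in the same libraries (0.86, adjusted p = 0.0912). DESeq2 called IGF1R, EPHB6, PTK7 and EPHA8 as higher besides the 5 that edgeR called.

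RET, the receptor of GDNF family ligands, had 109, 134 and 125 counts in control 1, 2 and 3, 0 and 23 in knockdown 1 and 2 and 219 in the library labelled knockdown 3. The levels in knockdown 1 and 2 lay below every other library, but the pair differed from each other too widely for edgeR (log2 fold change -4.06 ± 1.26 SE, edgeR adjusted p = 0.118), while DESeq2 gave an adjusted p of 0.0151.

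The ERBB and FGF receptors gave no call. ERBB2, the ligandless partner of the other ERBB receptors, was at 116, 152 and 135 CPM in the controls and at 168, 158 and 152 CPM in the knockdown libraries (log2 fold change in knockdown 1 and 2 of 0.28 ± 0.167 SE, edgeR adjusted p = 0.336). ERBB3, whose own kinase is nearly inactive, gave 0.18 on the log2 scale (adjusted p = 0.588). The rows of ERBB2, ERBB3, DDR1 and the ligand gene IGF2 share a locus name with an overlapping gene. FGFR1, FGFR2 and FGFR3 had log2 fold changes of 0.13, -0.15 and -0.12, with adjusted p of 0.652 to 0.801. FGFR4 was at 19.4, 10.3 and 6.31 CPM in the controls and at 22.3, 4.85 and 21.0 CPM in the knockdown libraries, so that it varied more within each group than between them.

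The tested EPH receptors other than EPHB1 did not pass edgeR's test, although DESeq2 called EPHA8 and EPHB6. EPHA2, a receptor of A-type ephrins, had 461, 506 and 242 CPM in the controls and 234, 403 and 369 CPM in the knockdown libraries (log2 fold change in knockdown 1 and 2 of -0.61 ± 0.288 SE, edgeR adjusted p = 0.239). EPHA4, which binds ephrins of both types, was at 37.2 CPM in knockdown 1 but 178 CPM in knockdown 2, against 49.0 and 36.8 CPM in control 1 and 2. EPHB4, the receptor of ephrin-B2, had 199 and 212 CPM against 169 and 167 CPM (log2 fold change -0.30 ± 0.0871 SE, edgeR adjusted p = 0.107). RYK, a pseudokinase receptor of WNT proteins, gave a similar size, -0.33 ± 0.0909 (SE, edgeR adjusted p = 0.0973).

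With all 6 libraries, 28 receptors were tested and edgeR called none (smallest adjusted p 0.581, with 3 at an unadjusted p under 0.05), beside 0.0065% of all genes, and DESeq2 called 1 higher, beside 1.04%. All 3 knockdown libraries lay above all 3 controls for 3 of the 28 tested receptors, ERBB3, MERTK and EPHA8, and below them for none, beside 7.39% and 6.6% of all genes. For DDR2 the fold change over all 6 libraries was -1.34 on the log2 scale (adjusted p = 0.763), since the library labelled knockdown 3 stood at the control level.

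The knockdown effect in the libraries numbered 3, minus that in those numbered 1 and 2, was then tested for the 28 receptors, with the single libraries of number 3 assumed to vary like the others. It differed for 4 receptors, 14.3% of those tested beside 4.54% of all genes, with 2 in each direction (2.35% and 2.19%). DESeq2 called 6 receptors in the negative direction, beside 7.01%, and its count of receptors in the positive direction is not given here. Over all genes it called 1082 in the positive and 1110 in the negative direction. DDR2 differed by 6.14 on the log2 scale (standard error 0.212, edgeR adjusted p = 0.0162) and ROR1 by 4.11 ± 0.287 (SE, edgeR adjusted p = 0.0252). EGFR and EPHB2 differed in the other direction, by -1.58 ± 0.154 (SE, edgeR adjusted p = 0.0355) and -2.02 ± 0.261 (SE, edgeR adjusted p = 0.0446).

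For EGFR, EPHB2 and ROR1 control 3 was the library that stood apart. EGFR, the receptor of EGF, had 158, 148 and 336 CPM in control 1, 2 and 3 and 178, 188 and 134 CPM in the knockdown libraries. EPHB2 was at 11.1, 10.9 and 44.8 CPM in the controls and at 11.9, 13.6 and 12.8 CPM in the knockdown libraries. The 5 libraries other than control 3 thus lay close together for both genes, and in knockdown 1 and 2 neither passed the test (log2 fold changes of 0.24 and 0.20, adjusted p = 0.152 and 0.441).

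AXL showed the same pattern, with 72.1, 87.8 and 358 CPM in the controls and 59.1, 65.1 and 86.2 CPM in the knockdown libraries, although the difference between the libraries numbered 3 and the others just missed the threshold (-1.69, adjusted p = 0.0512). EPHA7 counts were 0, 2 and 433 over the controls and 0, 0 and 10 over the knockdown libraries, a ratio of 380 between control 3 and control 1 and 2 (95% counting interval 105 to 3149). Against the mean of control 1 and 2, control 3 was at least 2-fold higher for 3 and at least 2-fold lower for 5 of the 31 tested receptors, beside 5.22% and 7.2% of all genes. The library labelled knockdown 3 had 1 receptor at least 2-fold lower and none higher, beside 2.39% and 1.47%. No replicate stands behind either single library.

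**Figure D4:**
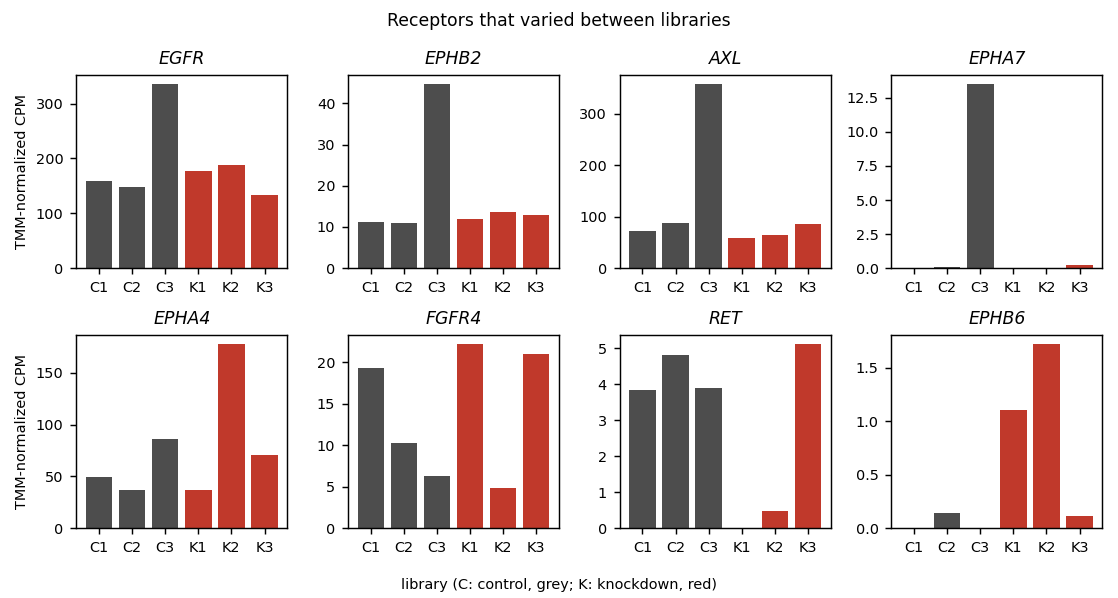
TMM-normalized CPM (vertical axis, starting at 0) of 8 receptors that varied between libraries, 1 bar per library, with controls in grey and knockdown libraries in red. EGFR, EPHB2, AXL and EPHA7 are highest in control 3, and EPHA4 is highest in knockdown 2.

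Ligands of these receptors were followed as a list of 72 genes, of which 39 were tested. In knockdown 1 and 2, 9 rose (AREG, EREG, NRG2, FGF18, PDGFA, PDGFB, KITLG, PGF and EFNB3) and 5 fell (HBEGF, PDGFD, VEGFA, IGF2 and EFNA5), and 25 did not pass the test. The calls are 35.9% of the tested ligands beside 13.6% of all genes, and the median log2 fold change was 0.09. With control 3 added to the controls, 4 were called higher (AREG, FGF18, KITLG and PDGFA) and 1 lower (HBEGF), beside 2.28% and 2.14% of all genes. Relative to the 100 nearest genes, 6 were called higher and 2 lower, beside 5.48% and 3.09% of all genes. Both were chosen after the values were seen.

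KITLG, the ligand of KIT, had no count in any control or in the library labelled knockdown 3, but 4668 and 5431 counts in knockdown 1 and 2, at least 2273-fold more (edgeR adjusted p = 0.0107). Its receptor KIT was at 0 in every library, and the mast cell markers TPSAB1, CPA3 and MS4A2 were at 0 as well. PDGFB and PDGFA, which bind the PDGF receptors, rose 18.6-fold and 4.51-fold (adjusted p = 0.0118 and 0.0159), with PDGFB at 6.06 CPM in control 3 against 21.0 and 19.0 CPM in knockdown 1 and 2, while PDGFRA and PDGFRB had at most 7 and 8 counts. The libraries thus held mRNA of ligands whose receptors were near or at 0.

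For the ERBB receptors, AREG was at 44.2, 31.4 and 39.3 CPM in the controls, 126 and 111 CPM in knockdown 1 and 2 and 39.8 CPM in the library labelled knockdown 3 (3.13-fold, adjusted p = 0.0276). EREG rose 1.41-fold, from 273 and 254 CPM to 373 and 374 CPM (adjusted p = 0.0401), and NRG2, a ligand of ERBB3 and ERBB4, rose 6.56-fold (adjusted p = 0.0264). HBEGF went the other way, from 19.0 and 18.7 CPM to 8.74 and 9.45 CPM (log2 fold change -1.06, adjusted p = 0.0305). Ligands of EGFR thus rose and fell in the same libraries, while EGFR itself did not pass the test.

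Ligands of FLT1 also moved in both directions. VEGFA was at 60.4 and 70.4 CPM in control 1 and 2 and at 39.8 and 34.1 CPM in knockdown 1 and 2 (log2 fold change -0.83, adjusted p = 0.0452). Control 3 had 38.6 CPM, within the range of knockdown 1 and 2, and the library labelled knockdown 3 had 82.0 CPM. The VEGFA call was lost with control 3 added (-0.61, adjusted p = 0.283) and relative to the 100 nearest genes (-0.42, adjusted p = 0.168). PGF, which binds FLT1, was at 4.22 and 4.57 against 8.36 and 10.6 CPM (1.10, adjusted p = 0.0479), and at 1.37 CPM in control 3. IGF2, a ligand of IGF1R, fell (-1.30, adjusted p = 0.0328), but control 3 and the library labelled knockdown 3 were lower still, at 1.59 and 1.80 CPM. GAS6, the ligand of MERTK and AXL, gave a log2 fold change of 0.80 (adjusted p = 0.112), and PROS1 one of 0.06 (adjusted p = 0.833).

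Among ephrins, EFNB3 rose from 7.46 and 8.79 CPM to 20.3 and 16.5 CPM (log2 fold change 1.17, adjusted p = 0.0419), and EFNA5 fell from 74.7 and 70.1 CPM to 42.2 and 35.4 CPM (-0.91, adjusted p = 0.0338), with 15.9 CPM in control 3. For EFNB2, the ligand of EPHB4, it was -1.34 (adjusted p = 0.0550). FGF18, a ligand of FGF receptors, rose a fitted 4.66-fold on a low level, from 0.603 ± 0.191 to 2.84 ± 0.195 CPM (SD, n = 2 each, adjusted p = 0.0324).

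**Figure D5:**
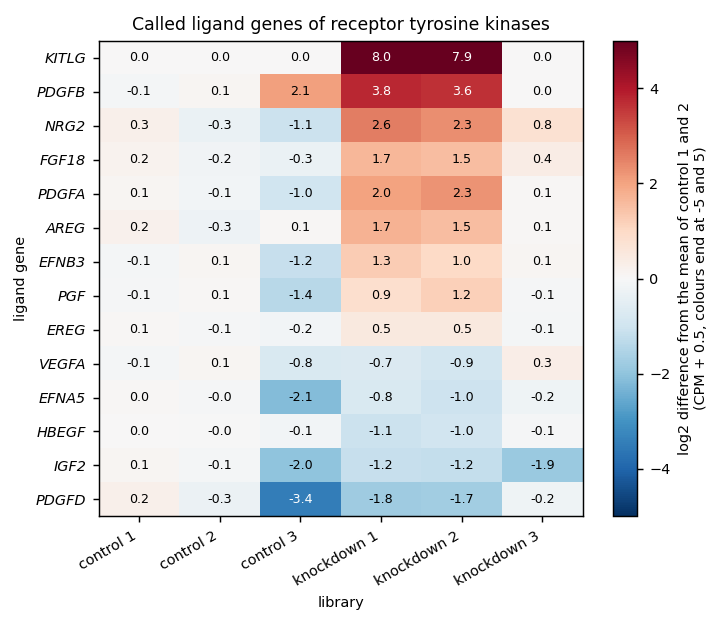
Log2 difference of each library from the mean of control 1 and 2 (colour and printed value, TMM-normalized CPM + 0.5) for the 14 ligand genes called in knockdown 1 and 2. KITLG and PDGFB are far above in knockdown 1 and 2, and PDGFD, EFNA5 and IGF2 are also low in control 3.

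Of 13 co-receptors, 8 were tested and 2 rose (25.0%, beside 13.6% of all genes). NRP2, a neuropilin that binds VEGF together with its receptors, gave 9, 0 and 0 counts over control 1, 2 and 3, 2815 and 3750 in knockdown 1 and 2 and 0 in the library labelled knockdown 3 (edgeR adjusted p = 0.0226). LRP4, the partner of MUSK at the neuromuscular junction, rose 1.66-fold (adjusted p = 0.0480) while MUSK was at 0. It was at 23.4 CPM in control 3, near the 26.6 and 24.8 CPM of knockdown 1 and 2, and the call was lost with control 3 added (adjusted p = 0.315). NRP2 therefore shared the on-off pattern of FLT1 and KITLG over the 6 libraries.

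Adaptors and effectors gave 6 calls among 34 tested genes (17.6%, beside 13.6% of all genes), with a median log2 fold change of 0.03. SHC2, SHC4, IRS1, GRB7 and DOK4 rose, and SHC3 fell. With control 3 added all but GRB7 were called, beside 2.28% higher and 2.14% lower of all genes. IRS1, the main docking protein of the insulin and IGF1 receptors, was at 196 and 199 CPM in control 1 and 2 and at 324 and 321 CPM in knockdown 1 and 2 (log2 fold change 0.70, adjusted p = 0.0243), and its 100 nearest genes had a median of 0.44, relative to which the change was 0.26 (adjusted p = 0.127). SHC3, a SHC adaptor best known from neurons, fell from 94.2 and 76.4 to 16.3 and 13.8 CPM (-2.51, adjusted p = 0.0149). SHC4 had no count in the controls and 354 over knockdown 1 and 2, at least 79.7-fold more (adjusted p = 0.0380). The shared adaptors GRB2, SHC1, SOS1 and GAB1 were among the 28 that did not pass.

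Inhibitors and turnover factors gave 7 calls among 22 tested genes (31.8%, beside 13.6% of all genes), with a median log2 fold change of -0.25. CBLB, a ubiquitin ligase that sends receptors to degradation, LRIG1, which lowers ERBB and MET protein, UBASH3B and the phosphatase PTPRJ rose. The endocytic adaptor EPS15 and the phosphatases PTPN12 and PTPRK fell. With control 3 added, edgeR called LRIG1 higher and EPS15 lower and none of the other 5, beside 2.28% and 2.14% of all genes. LRIG1 was at 5.45 and 4.43 CPM in control 1 and 2 and at 12.7 and 13.9 CPM in knockdown 1 and 2 (log2 fold change 1.42, adjusted p = 0.0300), whereas UBASH3B and PTPRJ were also high in control 3, at 27.1 and 62.2 CPM. PTPN12 fell from 170.1 and 188 to 40.4 and 61.5 CPM (-1.82, adjusted p = 0.0294) and was at 41.6 CPM in control 3. For EPS15 the change of -0.89 became -0.33 relative to its 100 nearest genes (adjusted p = 0.106).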

How the data were processed

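The counts are whole numbers per gene that the authors deposited, made with FastQC, STAR and StringTie per the labels; no source used here gives versions, genome build or annotation. StringTie derives counts from coverage, so they are estimates of read numbers. Of 42540 rows, 17321 were at 0 throughout, and 159 exact copies of another row were left out. Genes were tested over the whole table by the quasi-likelihood F test of edgeR 4.0.16 in R 4.3.3, after filterByExpr and TMM scaling, with Benjamini-Hochberg adjustment over all genes tested and a threshold of 0.05. DESeq2 1.42.0, other scalings, no filter, a replicate block and each library left out were run as alternatives, as was the change relative to the median of the 100 nearest genes (mean of at least 5 CPM) in RefSeq GRCh38.p14 order. Ligands, co-receptors, adaptors, inhibitors and marker lists were written for this work. The members and lists were chosen with earlier results of these data known. Receptors are named where called, where CPM + 0.5 spanned at least 4-fold with 50 counts, or where the mean CPM was at least 10, and of each list up to 8 called genes and the ligands of named receptors. Other genes named beside these were chosen after their values were seen. Deviations from the means of 3 libraries per group correlated at -0.0182, -0.0324 and -0.122 between the libraries numbered 1, 2 and 3. These means include the library labelled knockdown 3, so the correlations cannot show whether the libraries numbered 1 and 2 are paired. Replicate 1 minus replicate 2 correlated at 0.0711 between the groups over 15386 genes. The block was run as an alternative, and a number may mark a shared week. Counts give intervals for counting error only. The standard errors given for edgeR were derived from its test, as the absolute log2 fold change divided by the square root of F. In simulated counts, 2 libraries against 2 recovered 13.6% of 88 genes changed by 1 and 82.1% of 112 changed by 2 on the log2 scale. There 6 unchanged genes were called among 14858 tested. With 3 libraries against 3, 5.36% of 112 and 51.2% of 86 were recovered. Fewer genes were changed there than the 2114 called in the data, and none with low counts, so recovery in the data may differ.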

Additional observations from a re-analysis of the deposited data

Results flagged for a closer look

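The effect in the libraries numbered 3 minus that in those numbered 1 and 2 passed edgeR's test (adjusted p under 0.05 for the interaction) for 4 receptors, by -1.58 for EGFR, 6.14 for DDR2, 4.11 for ROR1 and -2.02 for EPHB2 on the log2 scale. Among the named ligands it was -6.68 for PDGFB, 12.37 for PDGFD, 2.87 for EFNA5 and 1.91 for VEGFA. Among the named adaptors and inhibitors it was 3.15 for SHC3, -2.94 for PTPRJ, -5.04 for UBASH3B and 12.14 for PTPRK. The values of PDGFD, at 0 in control 3, and of PTPRK, at 0 in knockdown 1 and 2, depend on the prior count. Both libraries numbered 3 enter these values. For DDR2 and SHC3 the library labelled knockdown 3 was at 130.5 and 88.0 CPM, against 119 and 94.2 CPM in control 1. For PDGFB, UBASH3B and PTPRJ control 3 was higher than control 1 and 2, at 6.06, 27.1 and 62.2 CPM, and for PDGFD, EFNA5 and ROR1 it was lower.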

How the results depend on the processing

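Results were recomputed with library size alone, DESeq2's size factors in edgeR, DESeq2, no filter, summed rows, a replicate block, each library left out, control 3 added, all 6 libraries and the 100 nearest genes. Beside the 5 higher and 2 lower receptors, DESeq2 called 9 higher, the nearest genes and control 3 added each gave 1 lower, and all 6 libraries, the replicate block in edgeR (0 higher and 0 lower) and each library left out (0 to 0) gave none. The block, by the number that the groups share, which may stand for a week of culture, gave no call over all genes in edgeR. There 5162 genes had an unadjusted p under 0.05, and the smallest edgeR adjusted p was 0.0630. The block in edgeR also gave 0 and 0 receptors for the interaction, and 0 for every ligand, co-receptor, adaptor and inhibitor count. DESeq2 with the block called 1039 and 950 genes. Leaving out any 1 of the 4 libraries left a single library in a group and gave no call for these lists or for any other gene. Over all 6 libraries DESeq2 called 1 receptor higher, and leaving out 1 library gave 0 to 4 higher and 0 to 1 lower, the upper values without knockdown 3. For the interaction DESeq2 called 6 lower. Library size alone, under which the median log2 fold change of all genes was 0.15 in place of 0.01, gave 3 ligands lower. Under it 1406 of all 15596 genes were called higher and 744 lower. DESeq2 called 5 inhibitors lower, beside 8.74% of all genes. In alternatives chosen after seeing the data, control 3 added gave 4 ligands higher and 1 lower, and 1 co-receptor higher. It also gave 1 inhibitor higher and 1 lower, beside 2.28% and 2.14% of all genes. The nearest genes gave 2 ligands lower, 1 co-receptor higher and 2 adaptors higher, beside 5.48% higher and 3.09% lower of all genes. Directions reversed for genes that gave no call. With control 3 added and with all 6 libraries, EGFR became -0.24 and -0.36, EPHB2 -0.81 and -0.80, FGFR2 0.15 and 0.18, and FGFR4 0.17 and 0.42, while INSR became 0.016 with all 6. By library size alone FGFR3 became 0.026 and FGFR4 0.0061, and against the nearest genes FGFR1 became -0.025, FGFR2 0.21, FGFR4 0.27 and the ligand PROS1 -0.050. With each library left out in turn FGFR1 ranged from -0.14 to 0.45, FGFR3 from -0.37 to 0.13, FGFR4 from -1.62 to 0.58, PROS1 from -0.013 to 0.14 and EPHA4 from -0.20 (without knockdown 2) to 2.05. ROR1 over all 6 libraries ranged from -0.97 without control 3 to 0.0026 without control 1. The causes were not tested. Counts near 0 in control 1 and 2 and knockdown 1 and 2 limit what can be said of the 22 untested receptors. One of them, EPHA7, had 433 counts in control 3.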
